A study of Mus musculus with 6 samples.

Results

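Cohesin and condensin are ring-shaped complexes that organise chromosomes, and CTCF is the DNA-binding protein at which cohesin loops are held. The transcripts of 10 of their genes were followed in E0771 cells with and without knockdown of lamin A/C. The genes were taken by exact symbol as Smc1a, Smc3, Rad21, Stag1 and Stag2 of cohesin, its loader Nipbl, Ctcf, and Smc2, Smc4 and Ncapd2 of condensin. All 10 were among the 10520 genes of the count table, and all 10 were among the 8969 genes that passed a filter on low counts and were tested.

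E0771 is a mouse breast adenocarcinoma line of C57BL/6 origin. Cells of both groups were transduced with lentivirus and selected in puromycin, so that they shared the resistance and the selection. The 3 shControl libraries came from cells carrying the empty vector, which expresses no hairpin, and the 3 shLmna libraries from cells stably expressing an shRNA against lamin A/C. The shLmna libraries carry shRNA4 in their titles, the group rests on 1 hairpin, and nothing in the labels says that the libraries of a group came from separate cultures, so that the p-values measure the spread between these libraries, which may be technical. The question was which transcripts changed with lamin A/C, the nuclear lamina protein that sets the stiffness of the nucleus. Transcripts were measured by MARS-seq, a sequencing method for the 3′ ends of polyadenylated RNA in which every molecule carries a unique molecular identifier (UMI) and is counted once. A library held 1846208 to 3242051 UMIs. The shControl libraries lay at plate positions 13 to 15 and the shLmna libraries at positions 16 to 18, and an effect of position cannot be told apart from one of the knockdown.

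The targeted gene was lower in the knockdown. Lmna (chromosome 3, 88480147 to 88509956, GRCm38) had 2066, 2794 and 1764 UMIs in shControl and 1035, 1023 and 713 in shLmna. The level fell from 873 ± 62.8 to 381 ± 6.34 CPM (UMIs of the gene per 1000000 in the library, scaled by TMM factors, SD, n = 3), a log2 fold change of −1.20 (SE 0.13, adjusted p = 3.547e-05, edgeR quasi-likelihood test). Of 6 epithelial markers, 4 had a row in the table, among them the keratin Krt8 with 516 to 814 UMIs per library, and Krt19 and Cdh1 were not analysed here. The summed level of the epithelial markers was 266 to 323 CPM in shControl and 288 to 316 CPM in shLmna, nearly all of it Krt8. The adhesion molecule Epcam was lower without overlap, with 34, 46 and 25 UMIs in shControl and 14, 32 and 8 in shLmna, a log2 fold change of −0.90 that did not pass the test (adjusted p = 0.0909, edgeR), and the keratin Krt18 had 14 to 19 UMIs in shControl and 7 to 20 in shLmna (−0.53, adjusted p = 0.453, edgeR). The part of these markers in the results was not tested. Of 8 markers of leukocytes, endothelium and fibroblasts, 4 had a row, and their sum was 26.5 to 32.2 CPM in shControl and 31.2 to 33.4 CPM in shLmna. Of these 4, the fibroblast and pericyte receptor Pdgfrb was higher in shLmna, with 26, 41 and 19 UMIs against 51, 49 and 36 (adjusted p = 0.0457, edgeR). Pdgfra had 15, 17 and 8 UMIs against 13, 16 and 10 (log2 fold change 0.04, adjusted p = 0.958, edgeR). Cd68 had 34, 26 and 17 against 23, 15 and 10 (−0.62, adjusted p = 0.234, edgeR). Pecam1, with 2 to 7 UMIs per library, was under the filter. The part of these markers in the results was not tested either. The defining markers Ptprc, Cd3e, Adgre1 and Cdh5 were not analysed here.

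In cohesin, Smc1a and Smc3 form the arms of the ring and Rad21 is the kleisin that closes it. Stag1 and Stag2 are alternative subunits of which each complex carries one. Nipbl loads cohesin on DNA, where the ring extrudes loops until it meets CTCF, and the same ring holds sister chromatids together until mitosis. Smc2 and Smc4 are the arms of both condensins, which compact chromosomes in mitosis, and Ncapd2 is a regulatory subunit of condensin I.

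In shLmna cells, 3 of the 10 genes were higher and 1 was lower at an adjusted p below 0.05 (edgeR quasi-likelihood test, Benjamini-Hochberg over all tested genes). Stag2 rose most, from a level near 0, followed by Smc4 and Rad21, while Smc2 fell. Stag2 passed the filter on low counts only through the shLmna libraries. Its call adds little to its having passed, here and in the counts that follow. The other 6, Smc1a, Smc3, Stag1, Nipbl, Ctcf and Ncapd2, did not pass the test. Over all tested genes, 7.96% were higher and 5.78% were lower by the same rule, 13.7% in all. The study's 3 criteria add a mean normalized count above 5 and an absolute log2 fold change above 1. The study used them with DESeq2, and here they were applied to the edgeR fit. By them Stag2 and Smc4 were higher and Smc2 was lower, against 3.97% and 1.74% of all tested genes and 5.71% in either direction. With DESeq2 itself, Smc4 did not pass (adjusted p = 0.147). On the fold criterion Smc2 stood just inside with −1.06 and Rad21 just outside with 0.97. The log2 fold change was positive for 9 of the 10 genes and for 50.4% of all tested genes, and its median was 0.28 against 0.0033 over all tested genes. With a correction for the GC content of the 3′ end it was positive for 7 of the 10 genes and for 46.7% of all genes, and the medians were 0.14 and −0.032. The groups did not overlap for 3 genes that were higher and 1 that was lower, against 16.8% and 15.7% of all tested genes (32.5% in all).

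**Figure D1:**
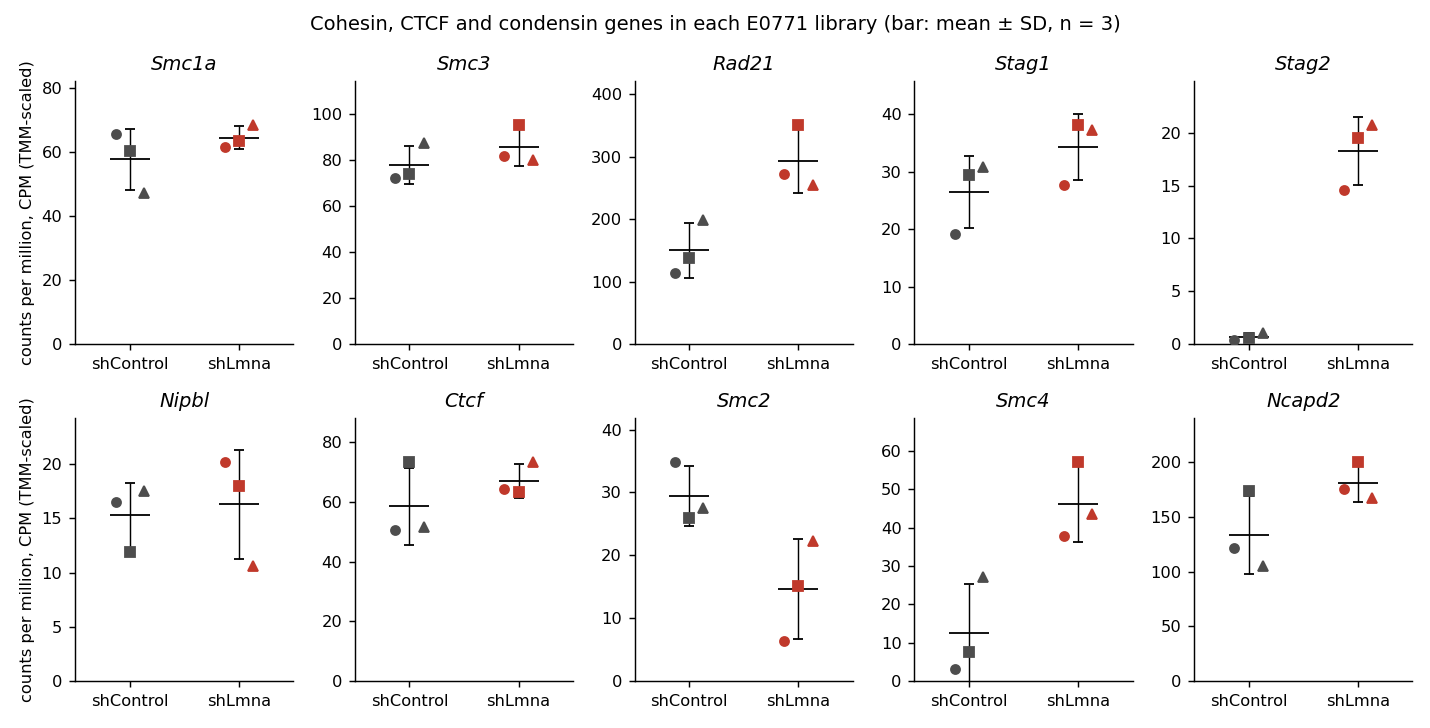
Level of each gene in CPM (TMM-scaled, linear axis from 0) in the 3 shControl libraries (grey) and the 3 shLmna libraries (red), with the circle, square and triangle for replicates 1, 2 and 3 and the bar for the mean ± SD. The groups do not overlap for Rad21, Stag2, Smc2 and Smc4, where Stag2 goes from 0.693 to 18.3 and Smc2 from 29.5 to 14.6.

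Each gene was counted over 1000 bases before its 3′ end and 100 bases beyond, so the order of the counts need not follow transcript length. Whether these bases run along the transcript or the genome is not stated, and the transcript length counted may differ between genes. The order can also follow the sequence of the counted ends, which differ in GC content from 31.6% to 51.7% and were not corrected for it here. In shControl cells the order by mean CPM was Rad21, Ncapd2, Smc3, Ctcf, Smc1a, Smc2, Stag1, Nipbl, Smc4 and Stag2. Rad21 at 150 ± 43.8 CPM and Ncapd2 at 134 ± 35.8 CPM were not separated by their SDs, and neither were Smc3, Ctcf and Smc1a from one neighbour to the next, Smc2 and Stag1, or Nipbl, Smc4 and Stag2 from one neighbour to the next. In shLmna cells the order was Rad21, Ncapd2, Smc3, Ctcf, Smc1a, Smc4, Stag1, Stag2, Nipbl and Smc2. Rad21 now stood apart from Ncapd2, at 293 ± 50.8 CPM against 181 ± 17.3 CPM. Smc2 had moved from the sixth place to the last and Smc4 from the ninth to the sixth, while the last places, held by Stag2, Nipbl and Smc2, were not separated by the SDs of neighbours.

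Neither arm of the cohesin ring passed the test. Smc1a (chromosome X, 152016428 to 152062694) had 168, 193 and 89 UMIs in shControl and 165, 173 and 129 in shLmna. These ranges overlapped, and the level was 57.8 ± 9.59 CPM against 64.7 ± 3.52 CPM, a log2 fold change of 0.15 (SE 0.17, adjusted p = 0.602, edgeR). Smc3 (chromosome 19, 53600398 to 53645833) had 184, 237 and 165 UMIs in shControl and 218, 260 and 151 in shLmna, and its groups overlapped as well. Its level was 77.9 ± 8.37 CPM against 85.8 ± 8.38 CPM, a log2 fold change of 0.15 (SE 0.16, adjusted p = 0.583, edgeR), which turned to −0.14 after a correction for the GC content of the 3′ end. The ratio of Smc1a to Smc3 UMIs within a library was 0.913, 0.814 and 0.539 in shControl and 0.757, 0.665 and 0.854 in shLmna, a difference of 0.033 on the log2 scale (exact permutation test, two-sided, p = 0.9, n = 3 per group).

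Rad21, whose product is cut by separase at anaphase, rose. It lies on the reverse strand of chromosome 15 from 51962240 to 51991747 (GRCm38) and had 291, 440 and 375 UMIs in shControl and 727, 955 and 480 in shLmna. In CPM this was 114, 138 and 199 against 273, 351 and 255, so that every shLmna library was above every shControl library. The fold was 1.96, a log2 fold change of 0.97 (SE 0.19, adjusted p = 0.00426, edgeR). Within a library, Rad21 stood at 1.58, 1.86 and 2.27 UMIs per Smc3 UMI in shControl and at 3.33, 3.67 and 3.18 in shLmna, a difference of 0.85 on the log2 scale (exact permutation p = 0.1, two-sided, the smallest that 3 libraries against 3 allow). The 3′ end of Rad21 has a GC content of 32.6%, and 1.97% of the tested genes have a lower one. With the GC correction the log2 fold change was 0.37 (adjusted p = 0.0847, edgeR), and Rad21 no longer passed the test.

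Stag2 showed the largest change of the 10 genes. The gene lies on chromosome X from 42149317 to 42277185 (GRCm38, forward strand) and had 1, 2 and 2 UMIs in the shControl libraries and 39, 53 and 39 in the shLmna libraries. At most 2 molecules were counted in any control library, so that Stag2 passed the filter on low counts only through the shLmna libraries. All 40 tested genes with at most 3 UMIs in every shControl library were higher at an adjusted p below 0.05 (edgeR). The call of such a gene therefore adds little to its having passed the filter. At most 3 UMIs in every shLmna library were found for 3 tested genes. Summed over the libraries of a group, the 131 UMIs in shLmna and 5 in shControl gave a ratio of 27.5 after division by the scaled library totals (95% exact interval 11.5 to 86.1, for counting error only). The level was 0.693 ± 0.340 CPM in shControl and 18.3 ± 3.23 CPM in shLmna (SD, n = 3), with an adjusted p of 7.795e-06 (edgeR quasi-likelihood test). The fitted log2 fold change was 4.69 (SE 0.43), a value that depends on the prior count, and it was 4.01 (adjusted p = 1.221e-05, edgeR) with the GC correction. The GC content of the Stag2 3′ end is 31.6%, the lowest of the 10 genes.

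The paralogue Stag1 was counted in all libraries. Stag1 (chromosome 9, 100597798 to 100959375) had 49, 94 and 58 UMIs in shControl and 74, 104 and 70 in shLmna, at 26.5 ± 6.31 CPM and 34.4 ± 5.78 CPM. The groups overlapped and the log2 fold change of 0.38 did not pass the test (SE 0.22, adjusted p = 0.294, edgeR). The ratio of Stag1 to Stag2 UMIs within a library does not depend on how libraries are scaled, and it was 49.0, 47.0 and 29.0 in shControl and 1.90, 1.96 and 1.79 in shLmna. The 2 groups of ratios lay far apart, with a log2 difference of −4.04 after 0.5 was added to each count (exact permutation p = 0.1, two-sided). The control ratios rest on 1, 2 and 2 Stag2 UMIs, and the log2 difference depends on the 0.5 added. They restate the change of Stag2 and are no separate result. The summed level of both paralogues was 27.1 ± 6.60 CPM in shControl and 52.6 ± 8.92 CPM in shLmna, and the lowest shLmna library at 42.4 CPM was above the highest shControl library at 31.8 CPM. This sum contains the change of Stag2 and is no separate result, as the groups overlapped for Stag1 alone. Of all tested genes, 16.8% were higher without overlap.

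Nipbl and Ctcf did not pass the test. Nipbl (chromosome 15, 8290617 to 8444463, reverse strand) had 42, 38 and 33 UMIs in shControl and 54, 49 and 20 in shLmna, with the third shLmna library the lowest of all 6. Its log2 fold change was 0.14 (SE 0.27, adjusted p = 0.785, edgeR), and its sign turned without shControl replicate 2 (−0.036) or shLmna replicate 1 (−0.055). Ctcf (chromosome 8, 105636568 to 105682922) had 129, 235 and 97 UMIs in shControl and 172, 172 and 138 in shLmna. Its level was 58.5 ± 12.97 CPM against 67.0 ± 5.57 CPM, with overlapping groups and a log2 fold change of 0.18 (SE 0.18, adjusted p = 0.553, edgeR) that was −0.056 with the GC correction.

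The arms of condensin moved in opposite directions. Smc4 (chromosome 3, 69004738 to 69034623) had 8, 24 and 51 UMIs in shControl and 101, 156 and 82 in shLmna, which in CPM was 3.14, 7.504 and 27.1 against 37.9, 57.3 and 43.6. All shLmna libraries were above all shControl libraries, but the control libraries were themselves spread over 12.6 ± 12.7 CPM, with the third far above the first. The fold was 4.01, a log2 fold change of 2.004 (SE 0.44, adjusted p = 0.00830, edgeR), and it was 1.60 (adjusted p = 0.00722, edgeR) with the GC correction. The call was lost without shControl replicate 2 (1.70, adjusted p = 0.0929, edgeR) and with DESeq2 (1.89, adjusted p = 0.147), and the log2 fold change was 3.05 without shControl replicate 3. The Smc4 3′ end has a GC content of 35.1%.

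Smc2 was the gene that fell. Smc2 (chromosome 4, 52439243 to 52488260) had 89, 83 and 52 UMIs in shControl and 17, 41 and 42 in shLmna, or 34.9, 25.9 and 27.6 CPM against 6.37, 15.1 and 22.3 CPM. The highest shLmna library stayed below the lowest shControl library, by less than the range within either group. The fold was 0.480, a log2 fold change of −1.06 (SE 0.32, adjusted p = 0.0392, edgeR). With the GC correction it was −1.56 (adjusted p = 0.00338, edgeR), away from 0, where the same correction moved Rad21, Stag2 and Smc4 toward 0. The call was lost without shControl replicate 1 (−0.93, adjusted p = 0.110, edgeR), without shControl replicate 2 (−1.15, 0.103), without shLmna replicate 1 (−0.69, 0.115) and without shLmna replicate 2 (−1.11, 0.0769).

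The ratio of Smc2 to Smc4 UMIs was 11.1, 3.46 and 1.02 in the shControl libraries and 0.168, 0.263 and 0.512 in the shLmna libraries. Every control library held more Smc2 than Smc4 molecules and every knockdown library fewer, although the third library of each group came closest to the other group. The log2 difference was −3.53 (exact permutation p = 0.1, two-sided). Both genes have a 3′ end GC content of 35.1% in the GENCODE annotation. The RefSeq end used in counting differs from it for Smc2, and the part of GC content in this ratio was not tested. The sum of both was 42.0 ± 11.1 CPM in shControl and 60.8 ± 14.7 CPM in shLmna, and these groups overlapped. Ncapd2 (chromosome 6, 125168007 to 125191701, reverse strand) had 311, 557 and 199 UMIs in shControl and 469, 547 and 315 in shLmna. It is the only one of the 10 with a GC content above the median of the tested genes, and its log2 fold change of 0.43 did not pass the test (SE 0.18, adjusted p = 0.124, edgeR). Without shControl replicate 2 it was 0.67 (adjusted p = 0.0423, edgeR). Over the 6 ratios compared, which also included Stag1 to Smc3 (p = 0.4) and Ncapd2 to Smc4 (p = 0.2), the adjusted exact permutation p was 0.2 for Stag1 to Stag2, Smc2 to Smc4 and Rad21 to Smc3, and 0.3 to 0.9 for the others.

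**Figure D2:**
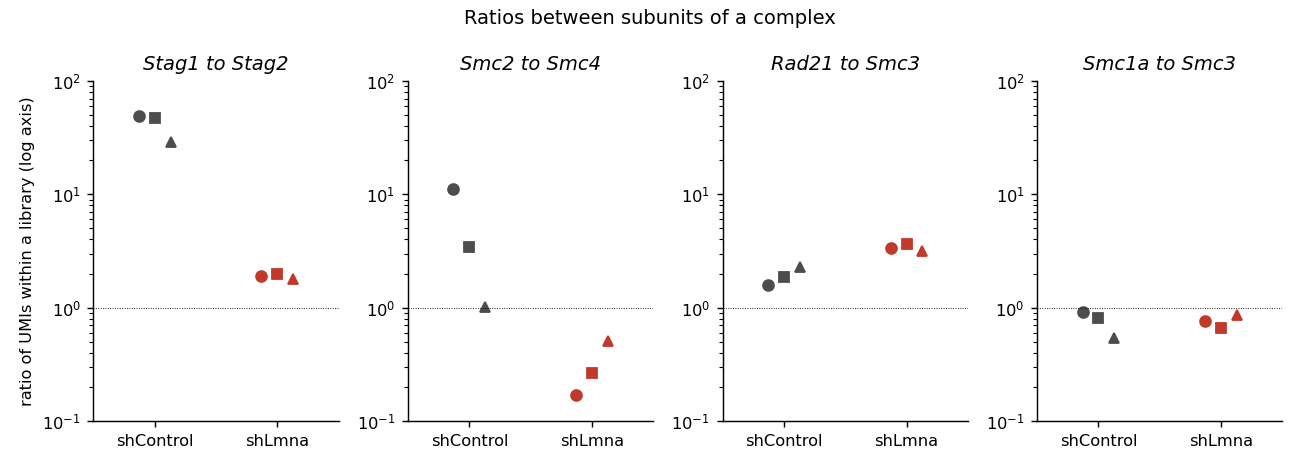
Ratio of UMIs of 2 subunits within each library on a log axis, for shControl (grey) and shLmna (red), with the circle, square and triangle for replicates 1, 2 and 3 and a dotted line at a ratio of 1. Stag1 to Stag2 goes from 29.0 to 49.0 in shControl to between 1.79 and 1.96 in shLmna, while Smc1a to Smc3 overlaps between the groups. The control ratios of Stag1 to Stag2 rest on 1 or 2 Stag2 UMIs per library.

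To show the regulatory sequence of a condensin gene that fell beside one that did not pass the test, the promoters of Smc2 and Ncapd2 are given 5′ to 3′ from RefSeq (GRCm38.p6), each a 300-base window that lies mostly upstream of the transcription start. The Smc2 window is chr4:52438971-52439270 on the forward strand and the Ncapd2 window is chr6:125191537-125191836 on the reverse strand. Capitals mark matches, on either strand, to the CCAAT box (CCAAT), the cell cycle homology region or CHR (TTTGAA) and the GC box (GGGCGG).
Smc2: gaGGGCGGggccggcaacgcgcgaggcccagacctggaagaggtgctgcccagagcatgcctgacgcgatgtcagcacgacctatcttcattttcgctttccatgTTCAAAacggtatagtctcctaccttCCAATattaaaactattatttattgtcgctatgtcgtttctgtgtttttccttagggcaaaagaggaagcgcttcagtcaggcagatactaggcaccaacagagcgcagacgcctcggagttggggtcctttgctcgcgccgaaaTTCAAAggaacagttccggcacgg
Ncapd2: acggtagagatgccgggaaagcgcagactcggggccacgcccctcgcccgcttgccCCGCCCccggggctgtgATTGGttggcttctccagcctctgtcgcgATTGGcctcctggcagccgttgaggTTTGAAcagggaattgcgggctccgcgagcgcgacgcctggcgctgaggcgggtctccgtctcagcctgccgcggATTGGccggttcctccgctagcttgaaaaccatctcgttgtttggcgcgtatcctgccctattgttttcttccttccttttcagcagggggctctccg
The CCAAT box is bound by NF-Y, the CHR by the complexes that time late cell cycle genes, and the GC box by Sp factors. Smc2 holds 1 CCAAT box, at −119 (with the start at 0), and 2 CHR matches, at −145 and 26. Ncapd2 holds 3 CCAAT boxes, at −177, −148 and −48, and 1 CHR match at −123. Each holds 1 GC box, at −248 in Smc2 and −194 in Ncapd2. A promoter was matched by symbol for 6 of the 10 genes, which were Smc2, Ncapd2, Ctcf, Stag1, Smc3 and Smc1a. Rad21, Stag2 and Smc4, the genes called higher, and Nipbl had no match. Of these 6, all 6 held a GC box, 4 a CCAAT box and 3 a CHR, against 35.7%, 37.4% and 17.9% of 32851 RefSeq promoters of this length. Those promoters include genes not tested here and were not matched for GC content, which was 52.7% to 75.3% in the 6 windows. The E2F core TTTCCCGC, whose reverse can share letters with a GC box, was found in 2 of the 6, Stag1 and Smc1a, and in 1.07% of all promoters. The NRF1 core GCATGCGC and the YY1 core AAGATGGC were found in 0 of the 6, and in 2.71% and 2.75% of all promoters.

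The 3′ ends of these genes were rich in A and T. The median GC content was 37.4% for the 10 genes, from 31.6% in Stag2 to 51.7% in Ncapd2, against 47.3% for all tested genes, and 9 of the 10 were below that median. Low GC content moved with the group over the whole table. In the lowest decile of tested genes by GC content (27.1% to 37.1%, 907 genes), which holds Rad21, Stag2, Smc2 and Smc4, the median log2 fold change was 0.30, and 20.8% of the genes were higher and 1.65% were lower at an adjusted p below 0.05 (edgeR). In the next decile, which holds Smc3, Stag1 and Ctcf, the median was 0.091, with 9.04% higher and 2.76% lower. The mean deviation of the lowest decile from each gene's mean log2 CPM was −0.53, −0.28 and 0.037 in the shControl libraries and 0.095, 0.37 and 0.32 in the shLmna libraries. The third shControl library was the control closest to the knockdown libraries on this measure. It also had the highest control level of Smc3, Rad21, Stag1, Stag2 (on 2 UMIs), Nipbl and Smc4. For Smc1a and Ncapd2 it was the lowest control, and for Ctcf and Smc2 it lay between the others. The part of GC content in the levels of single genes was not tested beyond the correction, under which Stag2 and Smc4 stayed higher, Smc2 stayed lower and Rad21 lost its call.

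**Figure D3:**
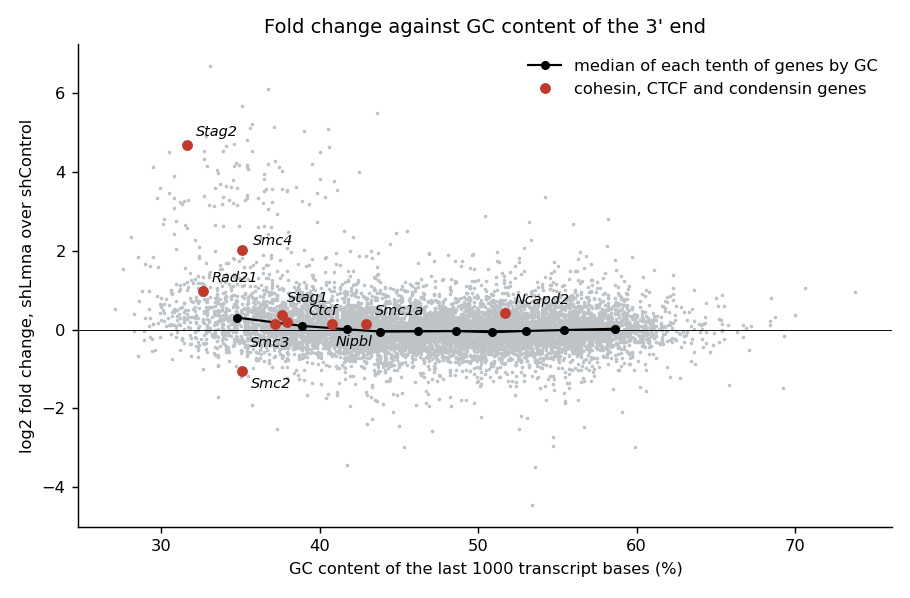
Log2 fold change of shLmna over shControl against the GC content of the last 1000 transcript bases in percent, for all tested genes with a GC value (grey), the median of each decile of genes by GC content (black line) and the 10 cohesin, CTCF and condensin genes (red). The black line starts at 0.30 in the lowest decile and lies near 0 from the third on, with Stag2 and Smc4 far above it and Smc2 below it.

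**Figure D4:**
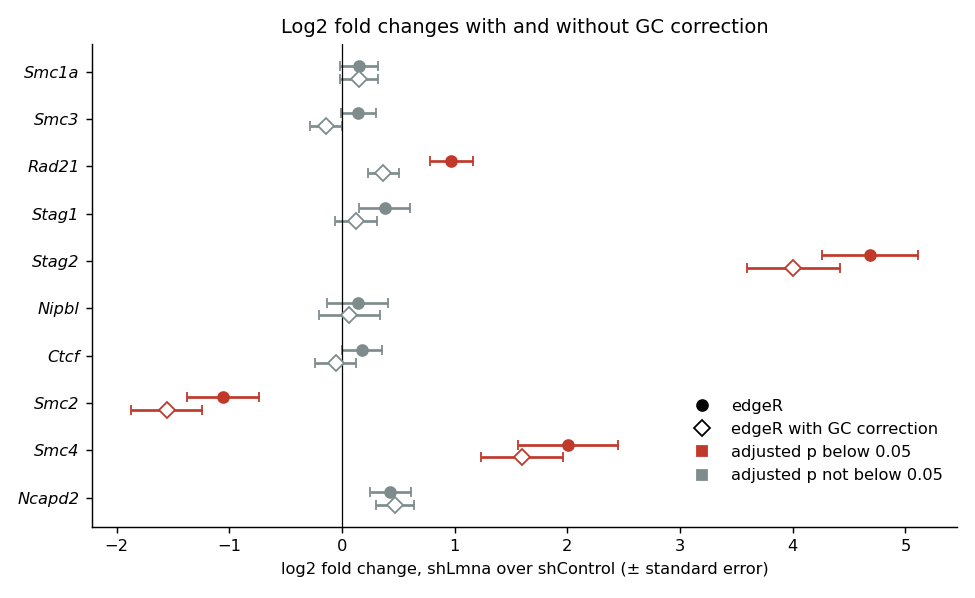
Log2 fold change of shLmna over shControl with its standard error for each of the 10 genes, by edgeR (filled circles) and by edgeR with the GC correction (open diamonds), in red where the adjusted p is below 0.05. Rad21 moves from 0.97 to 0.37 and turns grey, Smc2 moves from −1.06 to −1.56, and Smc3 and Ctcf cross 0.

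Further genes were read from lists of cohesin regulators, meiotic cohesin subunits, other condensin subunits, SMC5/6 genes with Smchd1, CTCF partners and proliferation markers. Of their 55 genes, 48 had a row and 45 were tested. At an adjusted p below 0.05, 4 were higher, Esco2, Sgol1, Smc5 and Ccna2, and 0 were lower (edgeR). Of these, Esco2 and Sgol1 passed the filter on low counts only through the shLmna libraries, so that their calls add little. Over all tested genes the shares by this rule were 7.96% higher and 5.78% lower. At an unadjusted p below 0.05, edgeR gave 8 higher and 3 lower, against 15.3% and 13% of all tested genes. At an adjusted p below 0.05, DESeq2 gave 3 higher and 0 lower, against 5.73% and 3.81% of all genes, and limma-voom gave 5 higher and 0 lower, against 8.08% and 5.76%.

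Among 12 regulators of cohesin, all had a row, 10 were tested, and 2 rose, where 7.96% of all tested genes were higher. Esco2, the acetyltransferase that establishes cohesion in S phase, had 1, 3 and 3 UMIs in shControl and 27, 35 and 16 in shLmna. Like Stag2, it was close to absent from the control libraries, and the pooled ratio was 11.7 (95% exact interval 5.42 to 30.1, counting error only, adjusted p = 0.000195, edgeR). Sgol1, an older symbol of the shugoshin Sgo1 that protects centromeric cohesin, had 0, 1 and 2 UMIs in shControl and 14, 20 and 18 in shLmna. Its pooled ratio was 18.2 (5.89 to 91.1, adjusted p = 0.000717, edgeR). Both passed the filter on low counts only through the shLmna libraries. They are among the 40 tested genes with at most 3 UMIs in every shControl library, all of which were called higher. Their 3′ ends have GC contents of 30.5% and 37.6%. With the GC correction their log2 fold changes were 2.72 and 3.78. Both kept their calls, which adds little for genes that passed the filter in this way. Separase, Espl1, which cuts Rad21, stood at 139 ± 4.30 CPM against 110 ± 14.3 CPM (adjusted p = 0.157, edgeR), and its inhibitor securin, Pttg1, at 254 ± 34.9 CPM against 321 ± 38.4 CPM (adjusted p = 0.158, edgeR). The cohesin release factor Wapl, listed as Wapal, with 3 to 20 UMIs per library, and the acetyltransferase Esco1, with 4 to 12, were under the filter and were not tested.

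The 5 other condensin subunits, Ncapg and Ncaph of condensin I and Ncapd3, Ncapg2 and Ncaph2 of condensin II, were all tested. Of these, 0 passed at an adjusted p below 0.05 (edgeR, and likewise DESeq2 and limma-voom) and 0 at an unadjusted p below 0.05, with log2 fold changes from −0.32 in Ncaph2 to 0.68 in Ncapg2. Over all tested genes, edgeR gave 13.7% at the adjusted p, and 15.3% higher and 13% lower at the unadjusted p. In the SMC5/6 complex, another ring, which acts in DNA repair, and its relative Smchd1, 1 of 7 genes rose. Of all tested genes, 7.96% were higher by the same rule. Smc5 had 19, 17 and 16 UMIs in shControl and 33, 43 and 24 in shLmna, a log2 fold change of 0.98 (SE 0.29, adjusted p = 0.0340, edgeR). Its 3′ end has a GC content of 31.1%, and the change was 0.25 (adjusted p = 0.591, edgeR) with the GC correction. The Smc5 call was also lost with DESeq2 (adjusted p = 0.128) and without any one library other than shControl replicate 3 (adjusted p = 0.0655 to 0.178, edgeR). Its partner Smc6 had 30, 49 and 29 UMIs against 63, 45 and 44, a log2 fold change of 0.57 that did not pass (adjusted p = 0.127, edgeR).

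Of 11 CTCF partners and loop-associated factors, 9 were tested and 0 passed at an adjusted p below 0.05 (edgeR), where 13.7% of all tested genes passed. At an unadjusted p below 0.05, 2 were higher and 0 lower, where all tested genes gave 15.3% and 13%. Those 2, chosen after their values were seen, were Top2b, the topoisomerase found at loop anchors, with a log2 fold change of 0.67 (adjusted p = 0.0576, edgeR), and Yy1, a zinc finger factor of enhancer loops, with 0.59 (adjusted p = 0.1, edgeR). DESeq2 called 0 of the 9 and limma-voom called Top2b (adjusted p = 0.0467), as did edgeR with the GC correction (adjusted p = 0.0271). Of 16 proliferation markers, 14 were tested and 1 rose, where 7.96% of all tested genes were higher. That gene was Ccna2, the cyclin of S and G2 phase, with 320, 434 and 341 UMIs in shControl and 681, 743 and 467 in shLmna. Its log2 fold change was 0.82 (SE 0.16, adjusted p = 0.00323, edgeR), and 0.67 with the GC correction, while the other 13 did not pass. The meiotic subunits Smc1b, Rad21l, Stag3 and Rec8 were not analysed here, and neither were Ctcfl, Adnp and Cdk1.

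**Figure D5:**
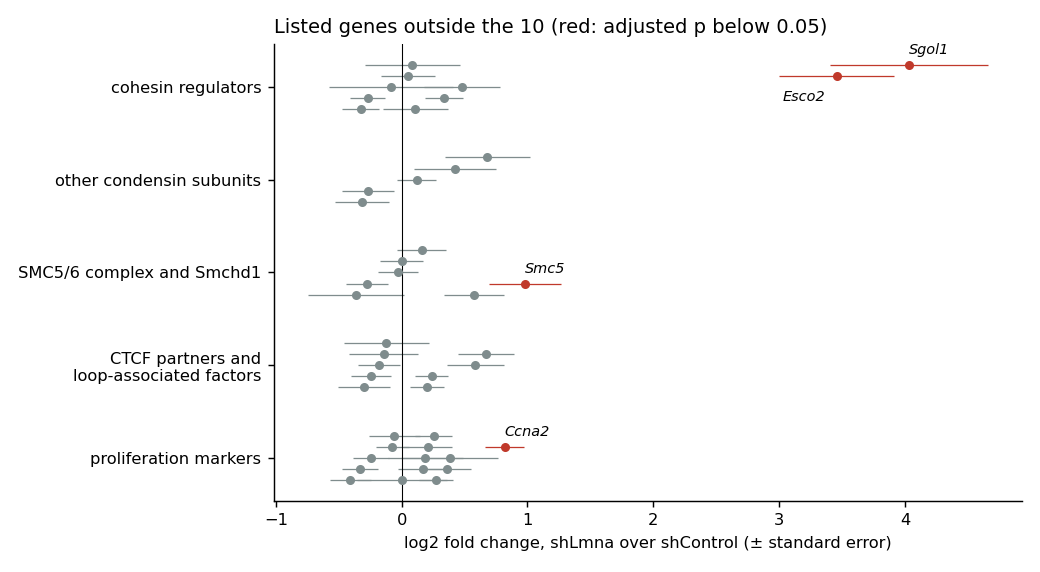
Log2 fold change of shLmna over shControl with its standard error for the 45 tested genes of the other lists, grouped by list, in red and named where the adjusted p is below 0.05. Sgol1 at 4.03 and Esco2 at 3.46 stand apart, and 0 of the condensin and CTCF partner genes are red.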

How the data were processed

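RNA of 3 shControl and 3 shLmna E0771 libraries was measured by MARS-seq, and groups and replicate numbers came from the labels. The authors trimmed reads with Cutadapt, mapped them to mm10 with STAR 2.4.2a and counted UMIs with HTSeq over a window at the end of each gene in RefSeq (1000 bases before the end, 100 after it). The deposited table holds these raw counts. Counting over the 3′ end alone makes values depend on that end's sequence and annotation. The 6 deposited columns of log2 values corrected with ComBat were not used, and neither was the authors' DESeq2 table of mean signals, log2 fold changes, p-values and adjusted p-values.

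Libraries held 1846208 to 3242051 UMIs, which sets the counting error. No pair of replicates was alike within counting error (chi-square per degree of freedom 5.11 to 8.28). Genes were kept by filterByExpr (minimum count 10), scaled by TMM and compared with edgeR 4.0.16 (R 4.3.3, quasi-likelihood, Benjamini-Hochberg), without a replicate block. CPM are TMM-scaled, and log2 CPM used a prior count of 2. Ratios of subunits were compared with exact permutation tests (scipy 1.17.1). GC content came from GENCODE M21 transcripts (GRCm38), matched for 10468 genes (323 by a former symbol), and the GC correction entered a loess curve (span 0.3) per library as an offset. These transcripts can differ from the RefSeq ones used in counting, as they do in the 3′ ends of Rad21, Nipbl, Smc1a and Smc2. No exon of another GENCODE gene overlapped the GENCODE 3′ ends of the 10 genes, and the RefSeq ends of these 4 were not searched separately. Copies elsewhere in the genome were not searched. Alternatives were DESeq2 1.42.0, limma-voom (limma 3.58.1), RLE and upper-quartile scaling, other filters, the GC correction, a replicate block and leaving out each library. The code was tested on simulated counts. The 10 genes, the lists and the tests were chosen with earlier results of these data known. Named were the 10 genes, Lmna, every listed gene past the test, others needed to describe a complex, and the 5 genes most similar to the mean of the 10.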

Additional observations from a re-analysis of the deposited data

How the results depend on the processing

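The fold changes of Lmna, of the 10 genes and of Esco2, Sgol1, Smc5 and Ccna2, the counts of calls and the median of the 10 genes were recomputed with RLE and upper-quartile scaling, without a filter, with a mean count of at least 50, with DESeq2, limma-voom, the GC correction and a replicate block, and without each library. Of the ratios, Stag1 to Stag2 was recomputed without each library (−4.24 to −3.89). Lmna (−1.26 to −1.15 without 1 library), Stag2 (4.42 to 4.99 without 1 library) and Rad21 (0.80 to 1.21) kept their calls wherever they were tested, except Rad21 with the GC correction (0.37, and 0.36 with the block added). Stag2, which passed the main filter only through the shLmna libraries, is not tested at a mean count of at least 50. The GC correction, alone and with the block, turned Smc3 (−0.14 in both) and Ctcf (−0.056 and −0.041). Smc2 lost its call at a mean count of at least 50 (−1.05), which left 0 members lower, and ranged from −1.45 to −0.69 without 1 library. Smc4 lost it with DESeq2 (1.89) and ranged from 1.52 to 3.05. Without 1 library, Nipbl ranged from −0.055 to 0.34, Ncapd2 from 0.28 to 0.67 and the median of the 10 genes from 0.22 to 0.43, while that median was 0.14 with the GC correction and 0.15 with the block added. The mean count filter, which tests 5846 genes, left 112 differentially expressed genes higher and 46 lower, 425 higher at an adjusted p below 0.05, and 1 listed pathway gene higher. Without 1 library, 254 to 462 genes were differentially expressed and higher and 92 to 192 lower, while 353 to 882 were higher and 187 to 698 lower at an adjusted p below 0.05. The lowest of these 4 counts were all without shControl replicate 2. The 10 genes then gave 3 higher and 0 to 1 lower, and the listed pathway genes 3 to 6 higher and 0 to 1 lower, the 1 being Mcm6 without shControl replicate 3 (−0.52). The causes of these changes were not tested.

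The replicate numbers are shared between the groups. Same-numbered libraries deviated together in part for replicate 1 (correlation of 0.35) but not for replicates 2 and 3 (−0.11 and 0.0052). These mixed values do not settle whether the numbers mark pairs. With the replicate block Ncapd2 passed (0.46, adjusted p = 0.0469, edgeR), as with the GC correction and the block (0.49, adjusted p = 0.0284). With the block alone 773 genes were higher and 577 lower, Yy1 was a further listed gene called, and the calls of the other 9 members were as without it. Genes with few UMIs, such as Stag2, Esco2 and Sgol1 in shControl, have no precise fold at this depth.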

Other observations

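The mean log2 CPM of the 10 cohesin, condensin and CTCF genes was 4.75, 4.98 and 5.18 in the shControl libraries and 5.52, 5.84 and 5.73 in the shLmna libraries. Without Stag2 and Smc4, the mean of the other 8 was 5.66, 5.78 and 5.77 against 5.75, 6.03 and 5.92, so that most of the difference lay in these 2 genes. The 5 other tested genes whose log2 CPM over the 6 libraries was most like the mean of the 10 were Scara3 (Pearson r = 0.997), Pdcl (0.996), Dpysl2 (0.993), Zfp248 (0.992) and Npepps (0.992), which is a description over 6 libraries of 2 groups. Their log2 fold changes were 0.77, 0.99, 1.95, 1.21 and 0.46. Scara3, a scavenger receptor family member, had 91, 131 and 88 UMIs in shControl and 170, 205 and 132 in shLmna.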
